A study of Rattus norvegicus with 2 samples.

Results

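Glucose metabolism was examined in rat liver 36 h after senecionine, through 46 genes of glycolysis, gluconeogenesis and glycogen turnover among 13667 genes that could be named on the array. The genes were chosen by their function, and their probes by the RefSeq accession that the scanner files give. Of the 46, 42 had a probe that was compared, and 33 were measured, meaning well above background on both arrays. A further 7 passed that limit solely after senecionine, none solely in the control (1.26% of all named genes did), and 2 (Fbp2 and Ppargc1a) in neither. The other 4 had no usable probe: the single spots of Pc, Foxo1 and Pygl carried a non-uniformity flag, and no accession on the array was matched to Pfkp.

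Both groups were Sprague Dawley rats, whose age and sex the labels do not give. Controls were dosed with sodium chloride. The other group received 35 mg/kg senecionine intragastrically, a plant toxin of the pyrrolizidine class that becomes reactive once hepatic cytochromes oxidise it. Liver RNA of 3 animals was pooled in each group, and each pool was read on 1 one-colour (Cy3) Agilent array. There are no replicates, so every difference below is between 2 arrays, has no replicate check and carries no p-value.

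The liver both makes and burns glucose. Gluconeogenesis runs from pyruvate to glucose-6-phosphate, which glucose-6-phosphatase splits into glucose for export, and glycolysis runs the other way to pyruvate and lactate. Many steps have a liver-type isoenzyme suited to the release or storage of glucose, and another that is widespread or typical of muscle and brain and holds on to glucose. Insulin represses gluconeogenesis, whereas glucagon acting through cAMP induces it, and low oxygen is known to induce many glycolytic genes.

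Levels are given as log2 of the processed signal over the array's 75th percentile, so that 0 is the 75th percentile, and are compared between the arrays for a given probe only. The log2 ratio is senecionine minus control, and the value after ± combines the spot errors that Agilent's software reports for both arrays, a technical error. The share of spots well above background was 44.4% in the control and 64.1% after senecionine. All 6 hepatocyte markers with a probe were measured, and 4 were at least 2-fold lower after senecionine, of which Alb, Cps1 and Tat were within 2-fold with quantile normalization and cyclic loess, and Alb, Cps1 and Hnf4a with normexp. Each array detected 12 of 20 brain markers, and 8 of the 9 seen on both were at least 2-fold lower. The log2 summed signal of the brain markers was 4.86 in the control and 2.51 after senecionine, with Gad1, Gad2, Slc17a7, Stmn2 and Map2 above background on neither. Neutrophil markers went from 3 of 9 well above background to 8 of 9, with log2 summed signals of 3.05 and 8.79. Of measured macrophage markers 2 of 8 were at least 2-fold higher and 4 lower, of endothelial markers 3 of 4 lower, and of skeletal muscle markers 1 of 2 higher. In bulk RNA, fewer cells of a type and less RNA per cell cannot be told apart.

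The lowest log2 ratios were those of Ldhb, G6pc1, Gckr, Slc37a4 and Pfkfb1, and the genes at least 2-fold higher were Pkm, Irs2, Slc2a1, Pgk1 and Hk1. Of the 33 measured genes 13 were at least 2-fold lower, or 39.4%, against 17.7% of the 7803 genes measured in all. At least 2-fold higher were 5, or 15.2%, against 11.2% of all measured genes, so 18 of 33 were past 2-fold in either direction, against 28.9%. The median log2 ratio was -0.14 over the 33 and -0.14 over all measured genes. At 4-fold, 8 genes were lower and 3 higher, against 4.63% and 2.73% of all measured genes. With normexp Pfkfb1 (-1.86), Khk (-1.90), Fbp1 (-1.88), Aldoc (-1.59) and Irs2 (1.96) came within 4-fold. Fbp1 also did with quantile normalization (-1.54) and cyclic loess (-1.69), and Khk with cyclic loess (-1.98). Ldhb, G6pc1 and Gckr held ranks 47, 52 and 57 from the lowest ratio among the 7803, and Pkm rank 81 from the highest.

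**Figure D1:**
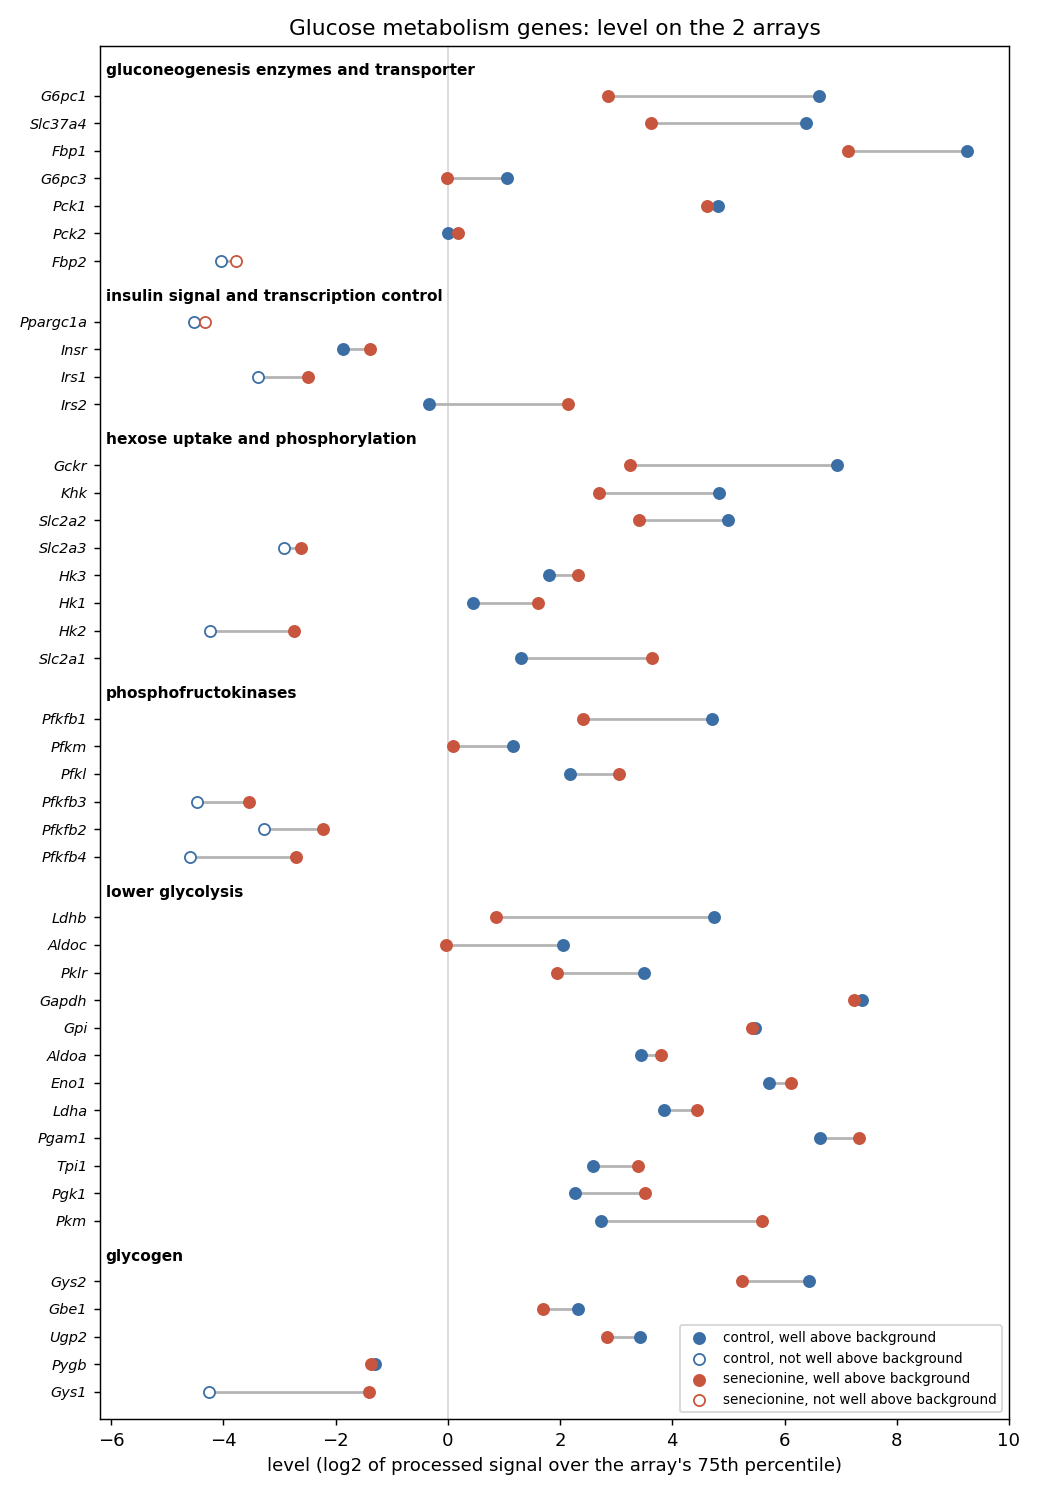
Level of each of the 42 genes with a probe on the control (blue) and senecionine (red) arrays, as log2 of processed signal over the array's 75th percentile, grouped by role, with open circles where the probe was not well above background. The longest drops are those of Ldhb, G6pc1 and Gckr, and the largest gain among filled pairs is that of Pkm, from 2.74 to 5.60.

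**Figure D2:**
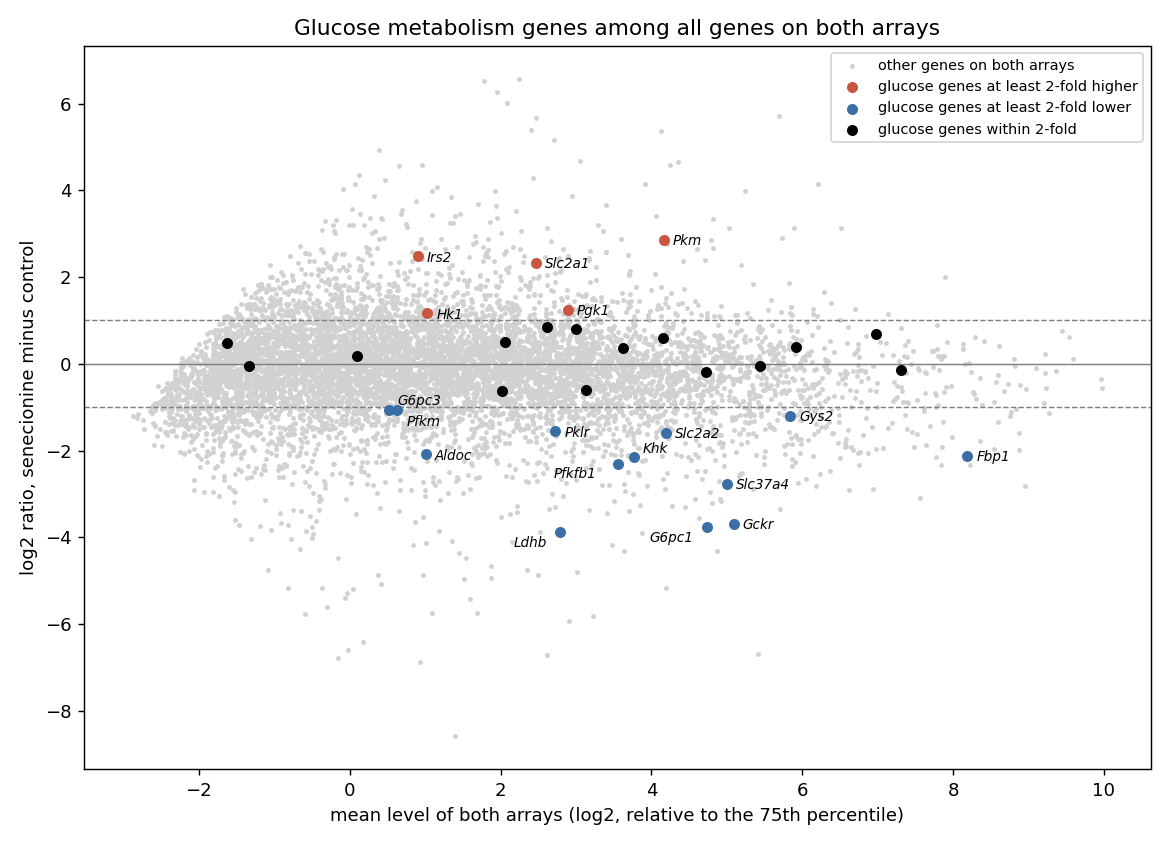
Log2 ratio (senecionine minus control) against the mean log2 level of both arrays for all 7803 measured genes (grey) and the 33 glucose metabolism genes (coloured by direction), with dashed lines at 2-fold. Fbp1 is the brightest of the glucose metabolism genes past 2-fold, and the dimmest glucose metabolism genes, Insr and Pygb, lie within 2-fold.

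The windows upstream of the start sites are shown for the 2 highest and the 2 lowest measured genes for which RefSeq (build GRCr8) gives exactly 1 window, and for Pck1, which is set against G6pc1 below. Each holds the 250 bases before the annotated start, 5′ to 3′ on the gene's strand. Capitals mark every match, on either strand, to ACGTG or GCGTG (forms of the hypoxia response core), CACGTG (the E-box, which contains ACGTG), TGACGTCA (the full cAMP response element) or TGACG (its half-site).
Pkm, chr8:68953385-68953634, plus strand: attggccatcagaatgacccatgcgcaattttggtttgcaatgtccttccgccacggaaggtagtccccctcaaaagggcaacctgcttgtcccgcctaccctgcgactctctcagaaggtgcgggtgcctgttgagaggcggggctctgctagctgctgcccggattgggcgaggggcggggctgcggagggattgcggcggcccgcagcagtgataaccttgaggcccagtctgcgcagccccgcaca
Slc2a1, chr5:138002272-138002521, plus strand: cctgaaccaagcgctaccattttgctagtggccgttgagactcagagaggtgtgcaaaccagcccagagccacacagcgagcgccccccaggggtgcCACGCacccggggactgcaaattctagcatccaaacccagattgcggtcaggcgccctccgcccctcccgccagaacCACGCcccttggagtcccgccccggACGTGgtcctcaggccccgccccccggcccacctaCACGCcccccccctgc
Ldhb, chr4:177177409-177177658, minus strand: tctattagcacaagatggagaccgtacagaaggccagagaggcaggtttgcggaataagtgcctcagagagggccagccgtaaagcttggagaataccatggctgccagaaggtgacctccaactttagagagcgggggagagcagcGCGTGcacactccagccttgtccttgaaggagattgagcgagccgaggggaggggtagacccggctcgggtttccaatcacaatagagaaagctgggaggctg
G6pc1, chr10:86807409-86807658, plus strand: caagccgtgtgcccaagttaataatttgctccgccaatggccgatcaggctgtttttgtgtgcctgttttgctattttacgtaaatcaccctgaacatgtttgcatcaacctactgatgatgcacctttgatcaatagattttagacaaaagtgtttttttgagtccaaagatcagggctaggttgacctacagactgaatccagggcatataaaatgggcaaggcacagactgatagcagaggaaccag
Pck1, chr3:182348322-182348571, plus strand: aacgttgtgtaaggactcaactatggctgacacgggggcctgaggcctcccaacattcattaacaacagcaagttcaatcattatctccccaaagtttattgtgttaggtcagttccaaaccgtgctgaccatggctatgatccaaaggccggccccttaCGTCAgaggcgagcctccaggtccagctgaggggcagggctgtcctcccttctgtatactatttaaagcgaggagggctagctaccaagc

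Slc2a1 held ACGTG at -51 from the start and 3 matches to GCGTG on the opposite strand, at -153, -76 and -16. Pck1 held 1 match, TGACG on the opposite strand at -90, and Ldhb 1 match to GCGTG at -103. None of these letters occurred in the windows of Pkm and G6pc1, which says nothing about factors that bind elsewhere. Among 33469 such windows over the genome, ACGTG occurred in 16.6%, GCGTG in 25.9%, TGACG in 18.2%, CACGTG in 5.59% and TGACGTCA in 1.59%. Of the 41 genes on the list with a window, 14 held ACGTG, 20 GCGTG, 11 TGACG, 3 CACGTG and 2 TGACGTCA. Some genes, such as Eno1 and Slc37a4, have more than 1 window and were counted if any held the letters. These counts per gene are therefore not on like terms with the shares per window. Fbp2, Pc, Irs2, Slc2a3 and Pgk1 had no window here. Of the 13 lower genes 3 held ACGTG and 6 GCGTG, and of the 3 higher genes with a window (Pkm, Slc2a1 and Hk1) 2 held ACGTG and 1 GCGTG. A match is a string of letters and no evidence of binding.

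Gluconeogenesis genes were lower at the steps that end in glucose, and Pck1 was not among them. Among 6 measured genes, 4 passed 2-fold downward and 0 upward, against 17.7% and 11.2% of all measured genes. With normexp 3 of the 6 did so downward. The median log2 ratio of the 6 was -1.59, or -1.19 with normexp. G6pc1, the catalytic subunit of liver glucose-6-phosphatase, had a level of 6.62 in the control and 2.85 after senecionine. This was a 13.7-fold lower signal (log2 ratio -3.77 ± 0.20), and its dimmer probe had a log2 ratio of -3.20 ± 0.21. Slc37a4, the transporter that carries glucose-6-phosphate into the endoplasmic reticulum to that enzyme, had levels of 6.39 and 3.61 and was 6.83-fold lower. Its other probe had levels of 6.43 and 3.31 (-3.12 ± 0.20). Fbp1, the liver fructose-1,6-bisphosphatase, had levels of 9.25 and 7.13 (-2.12 ± 0.20), and -1.77 ± 0.20 on its other probe. G6pc3, the widespread glucose-6-phosphatase, was 2.09-fold lower, from 1.05 to -0.02, but with normexp background correction its log2 ratio was -0.51.

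Pck1, the cytosolic phosphoenolpyruvate carboxykinase long used as the marker of gluconeogenic induction, stayed within 2-fold. Its probe was spotted 10 times on each array, and these spots ran from 4.62 through a median of 4.82 to 4.94 on the control array and from 4.51 through 4.61 to 4.74 on the senecionine array. The 2 sets of spots overlapped, and the mean log2 ratio was -0.20, which turned to 0.02 with cyclic loess and 0.01 with normexp. Pck2, the mitochondrial form, had levels of 0.01 and 0.18 on its brighter probe and a log2 ratio of 0.83 ± 0.30 on the dimmer one. Fbp2, the muscle fructose-1,6-bisphosphatase, was above background on neither array. Pc, pyruvate carboxylase, which opens the pathway, gave 6.63 and 3.85 (-2.78 ± 0.20) when its flagged spot was kept, and is not counted above.

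**Figure D3:**
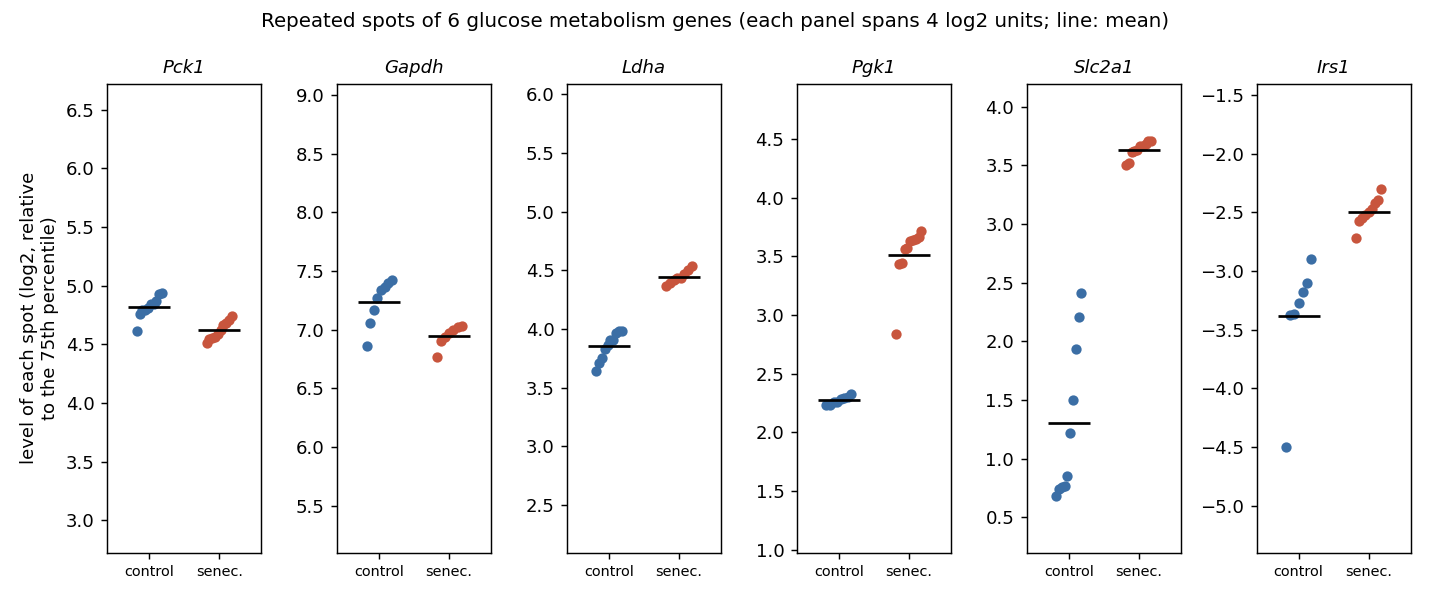
Level of every unflagged spot of the 6 genes whose probe was spotted repeatedly (log2 relative to the array's 75th percentile, control in blue, senecionine in red), each panel spanning 4 log2 units, with the mean as a line. Spots of the 2 arrays overlap for Pck1 and Gapdh and do not for Ldha, Pgk1, Slc2a1 and Irs1, and the control spots of Slc2a1 are the most scattered, with an SD of 0.67.

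Among genes of the insulin signal and of transcriptional control, Irs2 stood out. Irs2, an adaptor of the insulin receptor whose transcription insulin represses and fasting raises, went from -0.34 to 2.14 on its brightest probe, 5.56-fold higher (2.48 ± 0.22). Its other 3 probes were dim: none exceeded background clearly in the control, and 2 did after senecionine. Insr, the insulin receptor, had levels of -1.87 and -1.39, within 2-fold. For Irs1, the other main adaptor, 0 of 7 control spots and 9 of 9 senecionine spots were well above background. Its spots did not overlap, but all lay below the lowest level called well above background on the control array (-2.29), so no fold is given. Ppargc1a, a coactivator of gluconeogenic genes, was above background on neither array, and Foxo1, a forkhead factor that insulin restrains, had a log2 ratio of -0.51 ± 0.20 when its flagged spot was kept.

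Of 6 measured genes of sugar uptake and phosphorylation, 3 were at least 2-fold lower and 2 higher, against 17.7% and 11.2% of all measured genes. Slc2a2, the liver glucose transporter GLUT2, was 3.02-fold lower, to a level of 3.40 (-1.60 ± 0.20), and its dimmer probe gave -1.37 ± 0.21. Slc2a1, the transporter GLUT1 found in most cells, was 5.01-fold higher. Its 10 spots ran from 0.68 through a median of 1.04 to 2.41 on the control array, an SD of 0.67, and from 3.50 through 3.65 to 3.71 on the senecionine array, an SD of 0.07. The highest control spot lay 1.09 below the lowest senecionine spot, so the sets did not overlap. Slc2a3, the neuronal and leukocyte transporter GLUT3, was detected solely after senecionine (levels -2.92 and -2.61).

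Gckr, a regulatory protein of glucose phosphorylation in hepatocytes, went from 6.94 to 3.25 and was 12.9-fold lower (-3.69 ± 0.20). Khk, ketohexokinase, which commits fructose to metabolism, was 4.44-fold lower, from 4.84 to 2.69. Hk1, the widespread hexokinase, was 2.24-fold higher on its brighter probe, from 0.45 to 1.61, but its dimmer probe gave 0.24 ± 0.28 and the mean of both 0.70, which is within 2-fold. Hk3, a hexokinase known from leukocytes, was within 2-fold (0.51 ± 0.21). Hk2, the insulin-regulated hexokinase of muscle and fat, was likewise detected solely after senecionine (levels -4.24 and -2.75). Neutrophil markers, whose summed signal is given above, were higher on the senecionine array, and their part in the values of Hk3 and Slc2a3 was not tested.

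Among the phosphofructokinases and the bifunctional enzymes that set the level of their activator fructose-2,6-bisphosphate, Pfkfb1 was the lowest. Pfkfb1, the liver bifunctional enzyme that glucagon switches to its phosphatase activity, was 4.94-fold lower, from 4.71 to 2.41 (-2.31 ± 0.20). Pfkl, the liver phosphofructokinase, had levels of 2.19 and 3.04 (0.86 ± 0.21), and was just past 2-fold, at 1.02, in the authors' deposited table. Pfkm, the muscle form, was 2.09-fold lower, from 1.16 to 0.10, and within 2-fold with normexp, at -0.73. Pfkfb2, Pfkfb3 and Pfkfb4, the heart, inducible and testis forms, were each detected solely after senecionine, at levels of -2.23, -3.54 and -2.70. Set against the lowest level called on the control array, only Pfkfb2 has a bound, at least 1.04-fold higher. On the log2 scale this bound is 0.06, well inside the probe's spot error of 0.63. A second Pfkfb2 probe, well above background on neither array, went the other way, with levels given at the end.

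The group labelled lower glycolysis, which also holds the earlier-acting Gpi, Aldoa and Aldoc, had both the highest and the lowest genes of the whole set. Most of its other genes were within 2-fold. All 12 genes were measured. At least 2-fold higher were 2 (16.7%) and lower 3 (25%), against 11.2% and 17.7% of all measured genes. The median log2 ratio of the 12 was 0.38. Pkm, the pyruvate kinase gene of muscle, brain and proliferating cells, was 7.27-fold higher, from 2.74 to 5.60 (2.86 ± 0.20). Its splice forms were not analysed here. Pklr, the pyruvate kinase of liver and red cells, was 2.93-fold lower, from 3.50 to 1.95. Pgk1, phosphoglycerate kinase, was 2.37-fold higher, with 8 control spots from 2.23 through 2.27 to 2.32 and 10 senecionine spots from 2.84 through 3.60 to 3.72. The spots did not overlap, with 1 senecionine spot well below the others.

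Ldhb, the lactate dehydrogenase subunit typical of heart and brain, had the lowest ratio of the 33 genes, from 4.74 to 0.85, 14.8-fold lower (-3.89 ± 0.20). Aldoc, the brain aldolase, was 4.25-fold lower, from 2.05 to -0.04. Ldhb, Aldoc and Pfkm were lower on the same array as most measured brain markers. Of these markers Mag, Nefl and Vsnl1 had the lowest log2 ratios among those measured on both arrays (-4.05, -2.95 and -2.92). Snap25, Uchl1 and Nefm were well above background in the control alone. Syt1, Gfap and Camk2a were so after senecionine alone, at levels of -3.37, -3.32 and -3.21, below the lowest level called on the control array (-2.29). Not every gene described here as found in brain was at least 2-fold lower: Pkm and Pygb had log2 ratios of 2.86 and -0.06. Whether the brain transcripts on the control array account for any of the values of Ldhb, Aldoc and Pfkm was not tested.

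Ldha, the lactate dehydrogenase subunit of liver and muscle, was slightly higher, with 10 control spots from 3.64 through 3.88 to 3.99 and 8 senecionine spots from 4.37 through 4.43 to 4.54. Its spots did not overlap, and the ratio of 0.59 ± 0.20 was within 2-fold. Tpi1, triosephosphate isomerase, had levels of 2.59 and 3.40 (0.80), and stood at 2-fold in the authors' deposited table, with a log2 difference of 1.00. Pgam1, phosphoglycerate mutase, gave 0.69 ± 0.20 on its brighter probe and -0.09 ± 0.20 on the other, and the brighter one was past 2-fold with quantile normalization (1.12), cyclic loess (1.04) and normexp (1.12). Eno1, enolase, and Aldoa, the widespread aldolase, had log2 ratios of 0.40 and 0.36. On their brighter probes, Gpi, glucose-6-phosphate isomerase, and Gapdh had ratios of -0.05 and -0.14. Both were within the spot error of 0.20 and positive with quantile normalization and cyclic loess. The repeated, dimmer Gapdh probe had a log2 ratio of -0.29 ± 0.20, beyond that error. Its spots overlapped between the arrays, with 8 control spots from 6.86 to 7.43 and 7 senecionine spots from 6.77 to 7.03. Several of these genes have near-identical processed copies in the genome, and the probes may read those too.

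Of 4 measured glycogen genes 1 (25%), Gys2, was at least 2-fold lower and none higher, against 17.7% and 11.2% of all measured genes. With quantile normalization, cyclic loess or normexp 0 of the 4 were at least 2-fold lower. Gys2, the liver glycogen synthase, was 2.29-fold lower on its brighter probe, from 6.44 to 5.25, but -0.56 ± 0.21 on the other. It was within 2-fold with quantile normalization (-0.89), cyclic loess (-0.91), normexp (-0.95) and the mean of both probes (-0.87). Gys1, the muscle synthase, was detected solely after senecionine, from -4.26 to -1.41, at least 1.85-fold higher. Ugp2, which makes the UDP-glucose that synthase uses, had a ratio of -0.60 ± 0.20, and Gbe1, the branching enzyme, one of -0.63 ± 0.21 on its brighter probe and -1.24 ± 0.23 on its dimmer probe. Pygb, the brain phosphorylase, had levels of -1.30 and -1.36. Pygl, the liver phosphorylase, gave 3.92 and 2.66 (-1.26 ± 0.20) when its flagged spot was kept.

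Liver-type and other isoforms were then set side by side, 8 against 12 genes. Of 7 measured liver-type genes (G6pc1, Fbp1, Slc2a2, Pfkl, Pfkfb1, Pklr and Gys2) 6 were past 2-fold downward and 0 upward, with a median log2 ratio of -1.60. Of all measured genes 17.7% were so downward and 11.2% upward. With quantile normalization, cyclic loess or normexp 5 of the 7 were past 2-fold downward. Of the 5 measured other isoforms 2 were at least 2-fold higher (Slc2a1 and Pkm), 2 lower (G6pc3 and Pfkm), and Pygb was within 2-fold, with a median of -0.06. With normexp 0 of the 5 were at least 2-fold lower. A further 5 of the other isoforms (Slc2a3, Pfkfb2, Pfkfb3, Pfkfb4 and Gys1) were detected solely after senecionine. The 7 liver-type genes could not be, as all were well above background in the control, so this is no contrast between the classes. The senecionine array also called lower levels well above background, down to -3.63 against -2.29 in the control. Detection solely after senecionine was seen for 19.1% of all named genes and for 7 of the 42 genes with a probe. Of all genes so detected 12.2% had a bound of at least 2-fold, and of these 7 none did.

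Within a family, the other isoform had the higher log2 ratio in 3 of 4 pairs that could be compared, each from another family. The difference was 4.42 ± 0.29 between Pkm and Pklr, 3.92 ± 0.29 between Slc2a1 and Slc2a2 and 2.71 ± 0.29 between G6pc3 and G6pc1. Each of these is larger than its spot error, and for the pyruvate kinases it is a 21.3-fold change of one signal relative to the other. The phosphofructokinases went the other way, with a difference of -1.92 ± 0.29 between Pfkm and Pfkl. Without that family, a choice made after seeing the data, the medians were -1.86 for liver-type and 1.13 for other isoforms, against -1.60 and -0.06 with it. The values behind the 1.13 run from -1.07 (G6pc3) to 2.86 (Pkm). Both G6pc3 and G6pc1 were lower after senecionine, and differed in size.

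**Figure D4:**
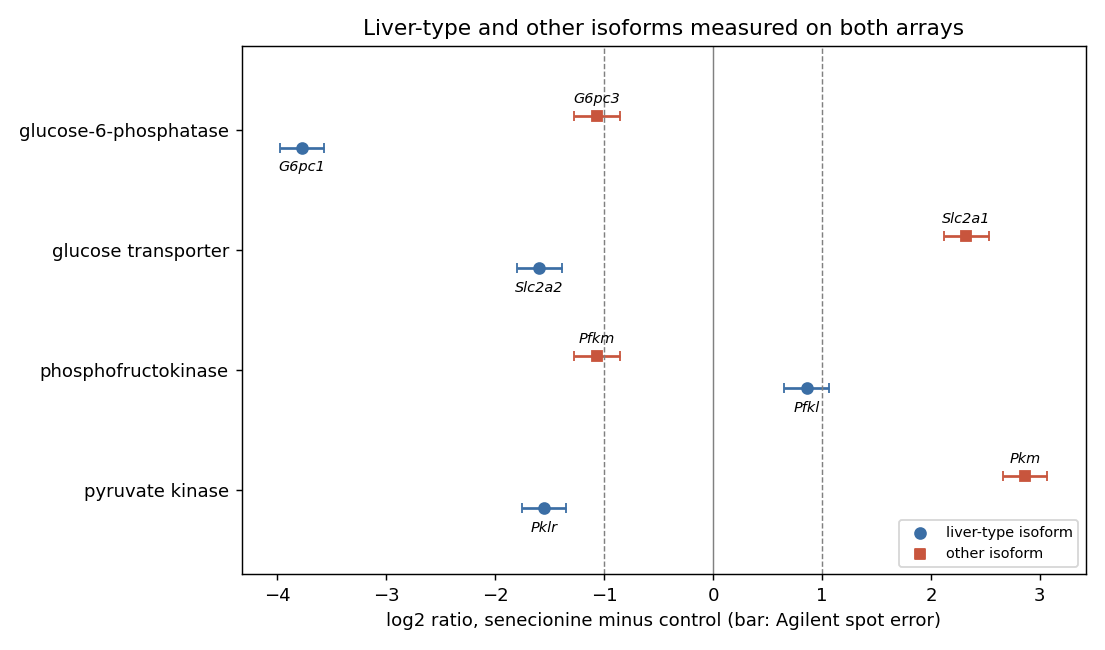
Log2 ratio (senecionine minus control) of the liver-type isoform (blue circles) and the other isoform (red squares) in the 4 families with both measured, with bars for Agilent's spot error and dashed lines at 2-fold. The red square lies to the right of the blue circle in each family except the phosphofructokinases.

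Genes around the pathway were looked up from lists chosen by function. Of 10 measured genes of pyruvate and lactate handling 1 (10%) was at least 2-fold higher and 3 (30%) lower, against 11.2% and 17.7% of all measured genes. The 1 higher was Slc16a3, the lactate exporter MCT4, at -0.29 and 5.10, or 41.9-fold. The 3 lower were Pdk2, a kinase that inhibits pyruvate dehydrogenase (6.14 and 3.78, 5.13-fold), Mpc2, a subunit of the mitochondrial pyruvate carrier (6.87 and 5.63), and Slc16a7, a monocarboxylate transporter (2.59 and 1.43). Mpc2 was within 2-fold with quantile normalization (-0.92), cyclic loess (-0.92) and normexp (-0.96), and Slc16a7 with normexp (-0.89). Pdk3 and Pdk4, picked out with their values known, were the 2 genes of this list detected solely after senecionine, at least 2.44-fold and at least 10.03-fold higher.

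Of 11 measured genes in the list of further glycolysis, fructose and galactose genes, 5 passed 2-fold downward and 2 upward, against 17.7% and 11.2% of all measured genes. With normexp 3 were lower and 1 higher, as Galt (-0.78), Slc2a8 (-0.55) and Adpgk (0.16), named with their values known, came within 2-fold. Slc2a5, the fructose transporter GLUT5, was 13.7-fold lower (1.39 and -2.38) and Tkfc, triokinase, which acts after ketohexokinase, 7.57-fold lower (2.27 and -0.65). Galk1, the galactokinase, was 2.58-fold lower (log2 ratio -1.37). Bpgm, the red cell enzyme that makes 2,3-bisphosphoglycerate, was 3.05-fold higher (-0.42 and 1.19). Red cell markers were also higher, 3 of 4 measured at least 2-fold, and their part in the Bpgm value was not tested. Of 12 measured further glycogen genes 2, or 16.7%, were at least 2-fold lower, near the 17.7% of all measured genes, and none was higher. The 2 were Ppp1r3b, which brings protein phosphatase to glycogen in liver (1.89 and 0.13, 3.37-fold), and the lysosomal glucosidase Gaa (3.05 and 1.78, 2.42-fold). Phkb, a phosphorylase kinase subunit, and Gyg1, the glycogenin that primes glycogen, had log2 ratios of -0.89 (-1.02 with median scaling) and 0.81.

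Among 21 measured genes of hormonal and transcriptional control, 3 (14.3%) were at least 2-fold higher and 4 (19%) lower. These shares are near the 11.2% and 17.7% of all measured genes. The median log2 ratio of the 21 was -0.20, or 0.08 with normexp. Igfbp1, a liver gene that insulin represses, was 17.6-fold higher (4.14 and 8.28), Myc 6.29-fold (1.51 and 4.16), and Ptpn1, a phosphatase of the insulin receptor, 2.91-fold, or 0.57 on the log2 scale with normexp. Beyond Cebpa, the genes in the rest of this paragraph were named with their values known. The 4 lower were the hepatocyte factors Cebpa (2.44 and 0.71) and Hnf4a, the glucagon receptor Gcgr (6.45 and 5.16), and Prkaa2, a catalytic subunit of AMP-activated kinase. Hnf4a and Prkaa2 were within 2-fold with normexp (-0.95 and -0.68), and Gcgr with quantile normalization (-0.99) and cyclic loess (-0.998). Prkaa1, the other catalytic subunit, was the 1 gene of the list detected solely after senecionine, at least 6.74-fold higher. Hif1a, the oxygen-regulated factor, had levels of 4.55 and 4.92, within 2-fold.

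**Figure D5:**
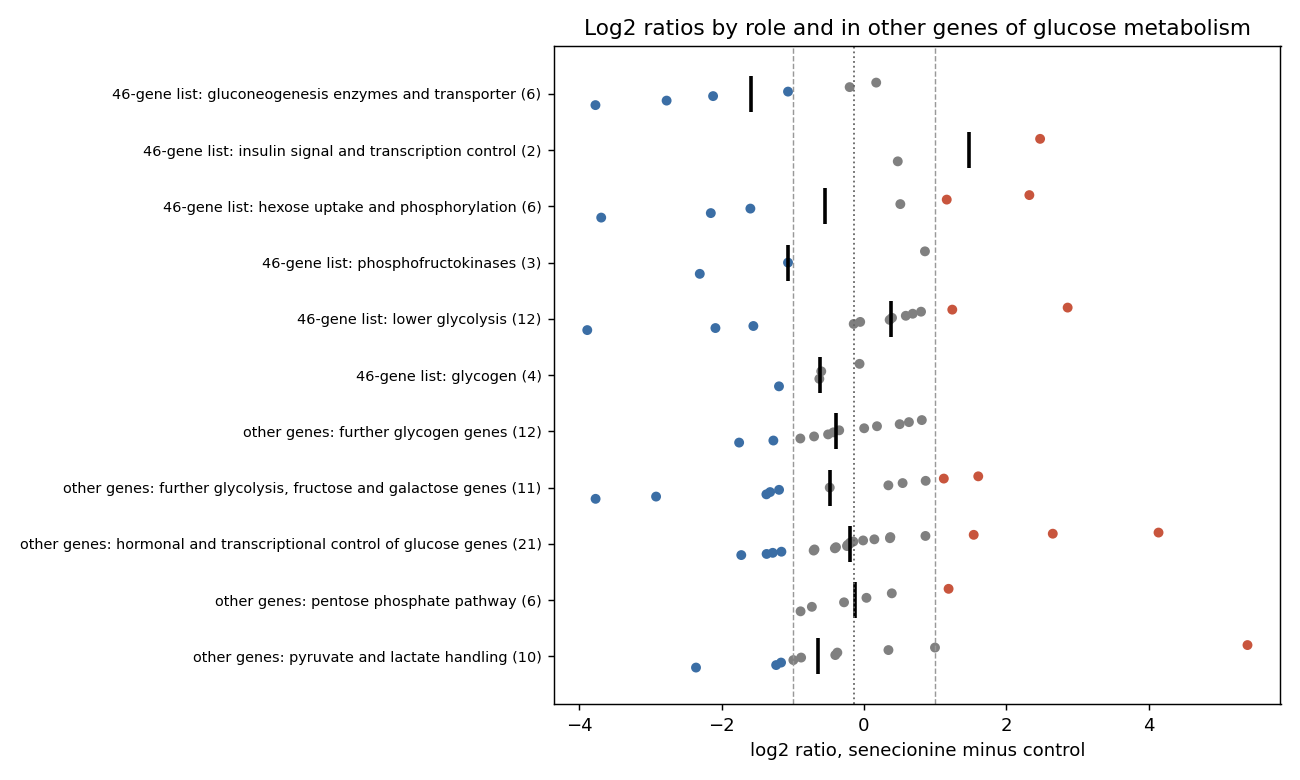
Log2 ratio (senecionine minus control) of every measured gene by role in the 46-gene list and in 5 lists of other genes of glucose metabolism, with the number measured in parentheses, black bars for medians, dashed lines at 2-fold and a dotted line at the median of all measured genes (-0.14). The gluconeogenesis row is the lowest of the roles with at least 4 genes, and Slc16a3 is the point farthest to the right.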

How the data were processed

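The authors deposited spot intensity values. The submitters' processing notes name Agilent Feature Extraction 10.7.3.1. Per the file headers, that software subtracted the background and detrended each array, and did not scale between arrays. The authors' deposited table of log2 values holds 7404 probes. The sources used here do not state how it was scaled or centred. That table comes from the same arrays and holds changed probes only, with a smallest absolute log2 difference of 1.0. All of its 7355 probes compared here had the same sign as the present ratios. Sign agreement on probes selected in this way is no independent check of the ratios. The columns of the authors' table have medians of 6.03 (control) and 6.10 (senecionine).

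Levels were computed as log2 of processed signal relative to each array's 75th percentile. Control spots and spots with an outlier flag were left out (522 on the control array, 497 on the senecionine array), and spots of a probe were averaged. No non-control spot was saturated. A probe counted as well above background if at least 0.5 of its spots did. RefSeq gene names (assembly GRCr8) were assigned by accession, for 17250 of 40516 probes. The brightest probe well above background on both arrays represented a gene. Probe coordinates are omitted, as the array design used a different build. Where only 1 array was well above background, the bound subtracts from the bright level whichever is larger, the dim level or the lowest level called well above background on that array. No test was possible with 1 array per group, and genes were counted at 2-fold. Precision is limited by having only 2 arrays. The design text also speaks of 2 independent experiments, read here as the 2 arrays.

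All 46 genes are accounted for, and up to 4 genes of each further list are named by absolute log2 ratio. Some genes of these lists are not reported here and were left out of the counts of those lists. The genes and lists were chosen with earlier results of these data known. Alternatives were median, quantile and cyclic loess scaling, normexp correction with offset 50 (on median spot signals, as mean signals are absent), other probe and detection rules, other folds, and the authors' values. The counting was tested on simulated data. Scaling alternatives were run with limma 3.58.1 in R 4.3.3, and the rest with pandas 2.3.3 and numpy 2.4.6 in Python 3.11.15, with plots by matplotlib 3.10.9.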

Additional observations from a re-analysis of the deposited data

How the results depend on the processing

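Under median, quantile, cyclic loess and normexp scaling all 18 genes past 2-fold kept their sign, and 15 of them, 10 lower and 5 higher, stayed past 2-fold. The exceptions were Gys2, G6pc3 and Pfkm, whose values are given in the report. Median scaling moved the median of all measured genes from -0.14 to -0.26, so its ratios are to be read against that shift. The median of the 33 genes was 0.02 with cyclic loess. The count of lower genes was 12 with quantile normalization and 10 with normexp, against 1283 and 761 of all 7803 measured genes.

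The count of higher genes was 5 of 33 as reported. It was 9 of 40 when detection on 1 array was enough, against 2388 of 10592 for all genes. With the authors' values it was 9 of 22, against 2032 of 3516, and at 1.5-fold 9 of 33, against 1642 of 7803. At 4-fold 3 were higher and 8 lower, against 213 and 361 of 7803. The median log2 ratio of the genes was 0.24 with detection on 1 array (0.10 for all genes). It was -1.16 with the authors' values, which hold changed probes only (1.11 for all genes). With flagged spots kept, an alternative chosen after seeing the data, it was -0.36 (-0.15 for all genes). In the last case 16 of 36 genes were lower, against 1430 of 7983 for all genes. Among the 16 were Pc, Pygl and Ugp2, whose flagged probe gave -1.59. The difference of isoform medians, 1.53 as reported, was 1.31 with cyclic loess, 2.58 with detection on 1 array and 3.93 with the authors' values. Without the phosphofructokinases, also chosen after seeing the data, it was 2.99. The cause of these shifts was not tested beyond the change in the genes counted.

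No paired analysis was possible because each group has 1 array. Dim genes limit the comparison: on the control array nothing below a level of -2.29 was called well above background, against -3.63 on the senecionine array.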

Other observations

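The pentose phosphate pathway, which branches from glucose-6-phosphate to make NADPH and ribose, stayed within 2-fold at 5 of 6 measured genes (median log2 ratio -0.12, or 0.06 with quantile normalization and 0.08 with cyclic loess). Pgls, the lactonase, had a control level of 4.86 and a senecionine level of 4.13 (-0.73 ± 0.20), and H6pd, the hexose-6-phosphate dehydrogenase of the endoplasmic reticulum, had levels of -0.92 and -1.81 (-0.89 ± 0.25, or -1.02 with median scaling). Tkt, named with its value known, and Taldo1, which return pentoses to glycolysis, had ratios of -0.28 (0.08 with quantile normalization) and 0.39. Rpia, ribose-5-phosphate isomerase, was 2.28-fold higher, from -2.11 to -0.92, but its log2 ratio was 0.19 with normexp.

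Pfkfb2 had a second probe, well above background on neither array, at -2.17 and -3.86, opposite in direction to the probe described above (-3.28 and -2.23).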
